A study of Canis lupus familiaris with 4 samples.

Results

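Mitochondrial ribosomal protein genes were followed across HIF2α-KD and control MDCK cells in hypoxia and normoxia. The members are the genes whose symbol starts with MRPL or MRPS and a digit, on probe sets that carry exactly 1 gene symbol, and the probe set with the highest mean over the 4 arrays stood for its gene. This gave 73 members out of 15115 genes with such a probe set, 47 with an MRPL symbol (large subunit) and 26 with an MRPS symbol (small subunit), on 162 probe sets. *MRPL44*, *MRPL51*, *MRPS6*, *MRPS17* and *MRPS24*, which belong to the family, are not analysed here.

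MDCK (strain II) is an epithelial cell line from dog kidney, and the study asked what HIF2α, a transcription factor of the hypoxia response encoded by *EPAS1*, does in these cells. Affymetrix canine arrays measured 4 conditions, namely HIF2α-KD cells in hypoxia, control cells in hypoxia, HIF2α-KD cells in normoxia and control cells in normoxia. All cells spent 24 h in normoxia (16% O2) and then 24 h either in hypoxia (1% O2) or in normoxia. The knockdown is a stable, puromycin-selected line carrying a retroviral shRNA against HIF2α, and the control cells, which the sample labels call wild type, were taken as the cells that carry the same retrovirus with an empty shRNA cassette. Which knockdown line was used is not in the labels, and the study's text names HIF2α-KD#1 for its microarray experiment in normoxia. Each condition had 1 array, so no difference taken between single arrays carries a replicate error or a p-value.

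The mitochondrial ribosome sits in the mitochondrial matrix and translates the few messenger RNAs of the mitochondrial genome, all of which encode subunits of the respiratory chain and ATP synthase. Its RNAs come from the mitochondrial genome, whereas all of its proteins are made in the cytosol from nuclear genes and imported. Many of these proteins descend from bacterial ribosomal proteins, and others have no bacterial counterpart and were added during mitochondrial evolution. Symbol and place do not always match: the products of *MRPS30* and *MRPS18A* sit in the large subunit, and the product of *MRPS36* is now assigned to the α-ketoglutarate dehydrogenase complex.

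The intensities are linear, and differences are given on the scale log2(intensity + 16), on which the changes of dim genes come out too small. Genes whose highest intensity over the 4 arrays was at least 28.75, the median of all values, were kept, which left 9749 genes and all 73 members. Each member also lay above the 95th percentile of 63 dim reporter probe sets on all 4 arrays, where that percentile was 20.6 to 27.2. The array medians were 28.2 to 29.1. *EPAS1* read 32.6 in cells labelled HIF2α-KD and 116 in control cells in hypoxia, and 47.9 on the array labelled HIF2α-KD and 44.6 on the control array in normoxia. The normoxic array thus does not bear out its label at the target gene, and each value for HIF2α-KD in normoxia, each knockdown difference in normoxia and each hypoxia difference in cells labelled HIF2α-KD rests on that array. *EPAS1* was dim on both normoxic arrays but above that reporter percentile, and why no fall showed there was not tested. The study reported lower HIF2α mRNA by RT-qPCR in each of its knockdown lines. Of 21 measured genes of the hypoxia response, 18 were higher in hypoxia than in normoxia in both lines, 2 were lower in both (*CA9* and *PFKFB4*) and 1 was mixed (*BNIP3*); these last 3 stayed under the filter on every array, and 2 of the 18 passed it through their hypoxic arrays alone. Of 9 kidney epithelial markers measured, 8 were above the reporter level on all arrays, the exception being *CDH1*, the gene for E-cadherin, with 81.4 in cells labelled HIF2α-KD and 119 in control cells in hypoxia and 18.9 in cells labelled HIF2α-KD and 15.5 in control cells in normoxia. Most fibroblast and endothelial markers (6 of 7 and 4 of 5) did not reach the filter. The 5 immune cell markers all passed it, and 4 of them were above the reporter level on all 4 arrays. Their summed intensities were low, with 182 and 147 in HIF2α-KD and control cells in hypoxia and 183 and 171 in HIF2α-KD and control cells in normoxia. The fibroblast marker *PDGFRA* read 75.7 in cells labelled HIF2α-KD and 145 in control cells in hypoxia and 33.8 in cells labelled HIF2α-KD and 31.5 in control cells in normoxia, and the part of such changes in the values below was not tested. In bulk RNA, fewer cells of a type and less RNA per cell cannot be told apart.

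All members were above the reporter level, and the dimmest lay close to it. The members with the highest mean intensities were *MRPL33*, *MRPL3*, *MRPS21*, *MRPS31* and *MRPL20*, and each read between 2654 and 4014 on every array. *MRPL33* read 3545 in cells labelled HIF2α-KD and 3321 in control cells in hypoxia, and 4014 in cells labelled HIF2α-KD and 3669 in control cells in normoxia. *MRPL3*, whose product is one of the large subunit proteins near the catalytic centre, read 3358 in cells labelled HIF2α-KD and 3289 in control cells in hypoxia, and 3510 in cells labelled HIF2α-KD and 3756 in control cells in normoxia. The dimmest members were *MRPS27*, *MRPL54*, *MRPL10*, *MRPL4* and *MRPS34*. *MRPS27* read 34.3 in cells labelled HIF2α-KD and 32.7 in control cells in hypoxia, and 30.5 in cells labelled HIF2α-KD and 31.1 in control cells in normoxia, close to the reporter level. Intensities of different probe sets also depend on their probes, so this order describes the probe sets and not the relative amounts of the RNAs.

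The control cells held both ends of the range. The control array in hypoxia was the lowest of the 4 arrays for 42 of 73 members (29 large, 13 small), against 26.1% of all genes kept, and the highest for 7 (35.1% of all genes). The control array in normoxia was the highest for 35 of 73 (23 large, 12 small), against 26% of all genes kept, and the lowest for 4 (23% of all genes). The HIF2α-KD array in hypoxia was the highest for 18 members (17.7% of all genes) and the lowest for 6 (20.1%). In normoxia the array labelled HIF2α-KD was the highest for 13 (21.2% of all genes) and the lowest for 21 (30.7%). With quantile, cyclic loess or median normalization the control array in hypoxia was the lowest for 49, 44 and 44 members. The shares of all genes rose as well, to 35.5%, 30.8% and 28.3%. The control array in normoxia was then the highest for 30, 29 and 37 members, against 26.8%, 24.3% and 28.6% of all genes.

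**Figure D1:**
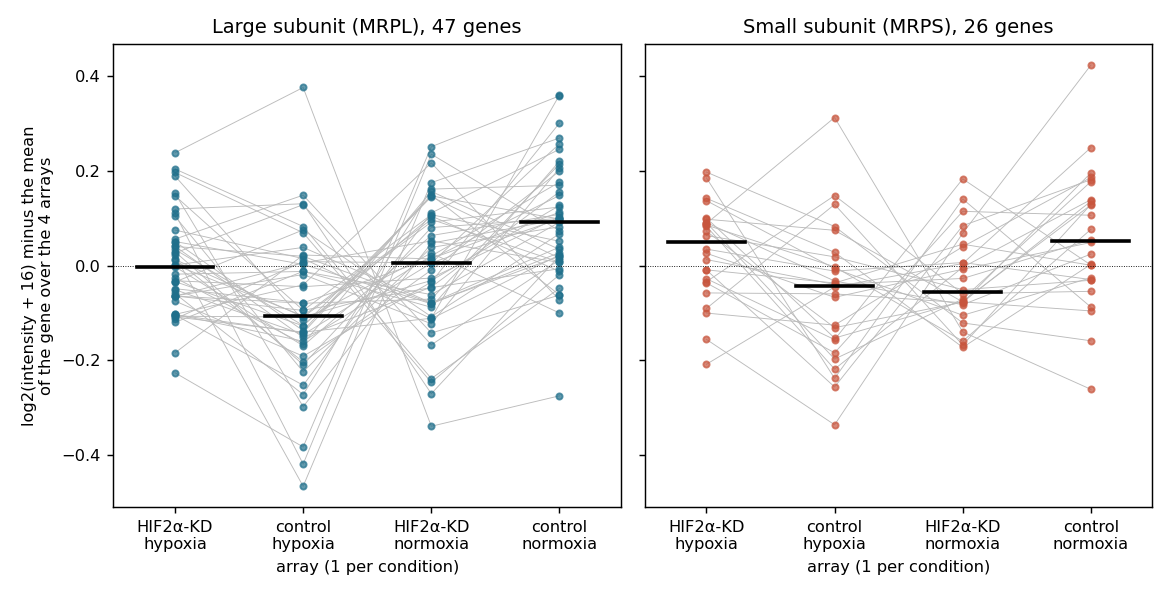
Log2(intensity + 16) of each member minus its own mean over the 4 arrays (y axis, log2 units) by array (x axis), for the 47 large subunit genes (left) and the 26 small subunit genes (right); each point is a gene, grey lines join the points of a gene, and black bars are medians. The control arrays lie furthest apart: control in hypoxia was the lowest array for 42 members (26.1% of all genes kept), and control in normoxia the highest for 35 (26%).

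Hypoxia against normoxia was read in each line. In cells labelled HIF2α-KD the members had no common direction: 32 of 73 members were below 0, against 46.8% of all genes kept, and the median difference was 0.03 (quartiles -0.12 and 0.15), beside 0.02 over all genes. No member reached 1.5-fold, either lower (2.69% of all genes) or higher (5.47%), and none reached 2-fold (1.81% of all genes in either direction). In these cells the large subunit had 25 of 47 genes below 0 and a median of -0.03, and the small subunit 7 of 26 below 0 and a median of 0.06.

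In control cells most members had lower intensities in hypoxia than in normoxia, by a small amount: 56 of 73 were below 0 (46.8% of all genes kept were), 16 were above 0, and *MRPL49* had equal values. The median difference was -0.15 (quartiles -0.31 and -0.00), beside 0.03 over all genes kept. No member differed by 2-fold, as 3.59% of all genes did. At 1.5-fold, 1 member was higher (10.2% of all genes) and 3 were lower (4.32% of all genes), so the shift was one of many small differences and not of a few large ones. Both subunits shared it, with 38 of 47 large subunit genes below 0 and a median of -0.15, and 18 of 26 small subunit genes below 0 and a median of -0.10.

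The comparisons in the 2 lines share no array. Set side by side, 31 members were lower in hypoxia in both lines (29.8% of all genes kept were), and 15 were higher in both (36.1%). A further 25 had a difference above 0 in cells labelled HIF2α-KD and below 0 in control cells (17% of all genes), and 1, *MRPL14*, was the other way round (17%). Across the members the differences of the lines had Pearson's r = 0.639, as a description over 73 genes that lie on the same arrays, and over all genes kept r was 0.527.

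**Figure D2:**
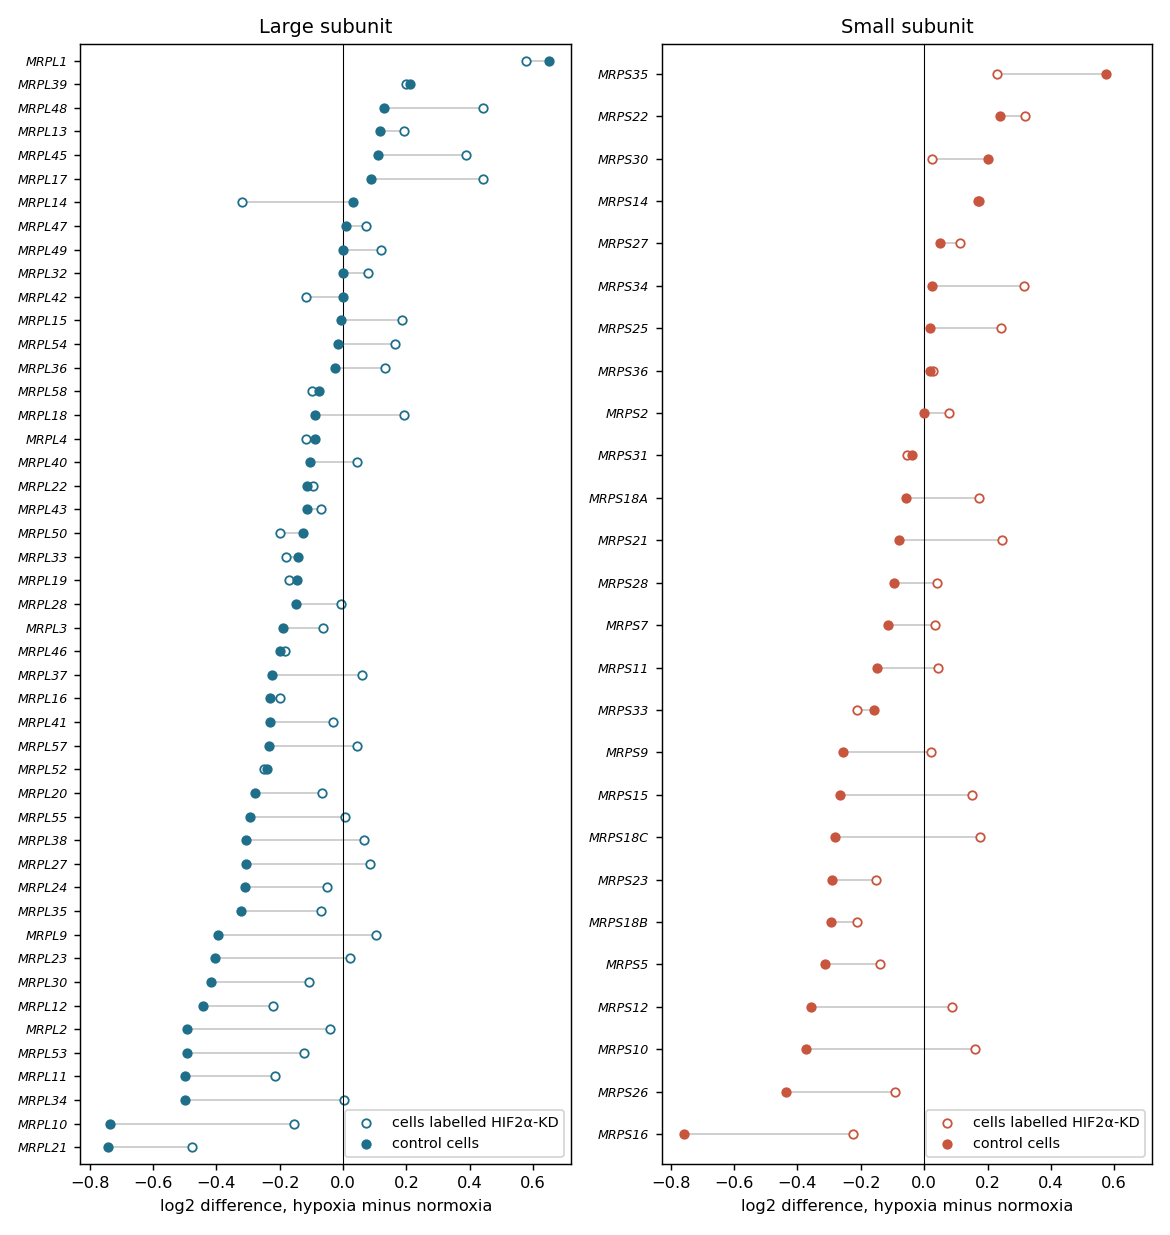
Log2 difference between hypoxia and normoxia (x axis) of each member (y axis) in cells labelled HIF2α-KD (open circles) and control cells (filled circles), large subunit left and small subunit right, sorted by the value in control cells; there is 1 array per condition and no error. Of the 73 members, 32 lie below 0 in cells labelled HIF2α-KD and 56 in control cells, with *MRPS16* lowest (-0.76) and *MRPL1* highest (0.65) in control cells.

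The lowest members in control cells were *MRPS16*, *MRPL21*, *MRPL10* and *MRPL34*. *MRPS16*, a small subunit gene with a bacterial counterpart that is mutated in a human combined oxidative phosphorylation deficiency, read 1571 in hypoxia and 1838 in normoxia in cells labelled HIF2α-KD, and 1385 in hypoxia and 2354 in normoxia in control cells. Its log2 differences were -0.22 in cells labelled HIF2α-KD and -0.76 in control cells, and the control array in normoxia stood above the other 3. *MRPL21*, which encodes the counterpart of bacterial L21 in the large subunit, read 2206 in hypoxia and 3075 in normoxia in cells labelled HIF2α-KD, and 1977 in hypoxia and 3314 in normoxia in control cells. Its differences were -0.48 and -0.74, the lowest of all members in cells labelled HIF2α-KD and the next lowest after *MRPS16* in control cells, so that both hypoxic arrays lay below both normoxic ones. *MRPL34* read 352 in hypoxia and 351 in normoxia in cells labelled HIF2α-KD, and 344 in hypoxia and 493 in normoxia in control cells, so that only the control array in normoxia stood apart.

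The 3 genes of the stalk, the part of the large subunit that recruits translation factors, all had lower RNA intensities in hypoxia. *MRPL12*, whose product is the stalk protein that contacts those factors, read 1002 in hypoxia and 1170 in normoxia in cells labelled HIF2α-KD, and 862 in hypoxia and 1176 in normoxia in control cells. *MRPL11*, which encodes a protein at the stalk base, read 1199 in hypoxia and 1394 in normoxia in cells labelled HIF2α-KD, and 1080 in hypoxia and 1532 in normoxia in control cells. *MRPL10*, whose product anchors the stalk, was dim, with 76.2 in hypoxia and 86.5 in normoxia in cells labelled HIF2α-KD, and 49.8 in hypoxia and 93.4 in normoxia in control cells. For these 3 genes both hypoxic arrays lay below both normoxic ones, as for 25 of 73 members and 22.6% of all genes kept. The log2 differences were -0.22, -0.21 and -0.15 in cells labelled HIF2α-KD and -0.44, -0.50 and -0.73 in control cells.

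Of the 15 members that were higher in hypoxia in both lines, *MRPL1*, *MRPS35*, *MRPS22* and *MRPL39* had the largest differences in control cells. *MRPL1*, which encodes the protein of the mobile L1 stalk at the site where tRNAs leave, read 1521 in hypoxia and 1014 in normoxia in cells labelled HIF2α-KD, and 1675 in hypoxia and 1061 in normoxia in control cells. Its log2 differences were 0.58 and 0.65, the highest of all members in either line, and it was the member at 1.5-fold higher. *MRPS35*, a small subunit gene with no bacterial counterpart, read 725 in hypoxia and 616 in normoxia in cells labelled HIF2α-KD, and 849 in hypoxia and 565 in normoxia in control cells. *MRPS22*, another gene with no bacterial counterpart and a human disease gene, read 1946 in hypoxia and 1558 in normoxia in cells labelled HIF2α-KD, and 1796 in hypoxia and 1517 in normoxia in control cells. *MRPL39* read 2649 in hypoxia and 2307 in normoxia in cells labelled HIF2α-KD, and 2825 in hypoxia and 2439 in normoxia in control cells. In each of these genes both hypoxic arrays lay above both normoxic ones, as for 13 of 73 members and 27.1% of all genes kept.

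By their brightest probe sets, other members were high or low in hypoxia mainly under the knockdown label. *MRPL17* and *MRPL45*, which encode proteins at the exit of the tunnel through which the new chain leaves, and *MRPL48*, which encodes a protein of the central protuberance, had log2 differences of 0.44, 0.39 and 0.44 in cells labelled HIF2α-KD, and of 0.09, 0.11 and 0.13 in control cells. In normoxia the array labelled HIF2α-KD was their lowest. *MRPL45* read 1263 in hypoxia and 960.5 in normoxia in cells labelled HIF2α-KD, and 1273 in hypoxia and 1178 in normoxia in control cells. The second brightest probe set of *MRPL45* had the larger difference in control cells (0.16), with 0.09 in cells labelled HIF2α-KD. That of *MRPL48* gave 0.35 in cells labelled HIF2α-KD and 0.04 in control cells. *MRPL14*, whose product lies at the interface with the small subunit, read 1365 in hypoxia and 1708 in normoxia in cells labelled HIF2α-KD, and 1426 in hypoxia and 1394 in normoxia in control cells, with the highest value under the knockdown label in normoxia. *MRPL52*, with differences of -0.25 in cells labelled HIF2α-KD and -0.24 in control cells, was among the lowest in cells labelled HIF2α-KD and about as low in control cells.

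A fit over all 4 arrays with oxygen and knockdown as additive terms gave the only error available, with 1 residual degree of freedom. That residual is the change of the knockdown difference between oxygen levels, read for the members below, and not a replicate error. The limma moderation also draws on the other genes. By limma with Benjamini-Hochberg adjustment over all genes kept, the oxygen term called 275 genes (2.82%), 234 higher and 41 lower in hypoxia, and 0 of the 73 members. At an unadjusted p under 0.05, 2 members were higher (*MRPL1* and *MRPS35*) and 4 were lower (*MRPL21*, *MRPS16*, *MRPL11* and *MRPL10*), against 20.6% of all genes in either direction. The smallest adjusted p among members was 0.0556 for *MRPL21* (-0.61 ± 0.12, SE), followed by 0.0628 for *MRPL1* (0.61 ± 0.13, SE), both by limma. With quantile normalization both passed (2 members called), as they did with robust moderation, and *MRPL21* alone passed with median centring and with a pseudocount of 1. The knockdown term called 0 genes (0%) and 0 members by limma. At an unadjusted p under 0.05 it held 0 members as well, against 9.63% of all genes, and the smallest adjusted p among members was 0.552 for *MRPS11* (0.33 ± 0.15, SE).

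HIF2α-KD against control cells was then read at each oxygen level. In hypoxia most members were higher in cells labelled HIF2α-KD: 56 of 73 were above 0 and 17 below it, while 55.7% of all genes kept were below 0. The median was 0.09 (quartiles 0.00 and 0.17), beside -0.04 over all genes. No member was 1.5-fold higher (1.62% of all genes) or 1.5-fold lower (4.93%), and none differed by 2-fold (0.985%). The small subunit had 22 of 26 genes above 0 (median 0.10) and the large subunit 34 of 47 (median 0.06). In normoxia the counts lay the other way, with 54 of 73 members lower under the knockdown label than in control cells, against 56.4% of all genes kept, and a median of -0.10 (quartiles -0.19 and 0.01), beside -0.04 over all genes. Again no member was 1.5-fold lower (3.55% of all genes) or 1.5-fold higher (2.45%), and none reached 2-fold (1.16%). In normoxia the medians were -0.10 for the large and -0.09 for the small subunit, with 36 of 47 and 18 of 26 genes below 0.

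The comparisons at the 2 oxygen levels share no array. Between them, 40 members were higher in hypoxia and lower in normoxia under the knockdown label (22.7% of all genes kept were), 16 were higher at both levels (21.6%), 14 were lower at both (33.7%), and 3 were lower in hypoxia and higher in normoxia (21.9%). At a size of at least 0.2 at both levels, 4 members had opposite signs, against 7.73% of all genes. The knockdown difference in hypoxia minus that in normoxia, which uses all 4 arrays, was above 0 for 59 of 73 members (median 0.18). Of all genes kept, 49.6% were above 0 (median -0.00). Other mitochondrial groups lay the same way, with 41 of 58 nuclear respiratory chain genes (median 0.06) above 0. So did 11 of 15 translation factors (0.23) and 13 of 18 ribosome assembly genes (0.18). Of the cytosolic ribosomal protein genes, 15 of 54 were above 0 (-0.04). Among members this difference ran between -0.35 for *MRPL14* and 0.58 for *MRPL10*. Across members the knockdown differences in hypoxia and in normoxia had Pearson's r = 0.201, and across all genes kept 0.171, again as a description.

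**Figure D3:**
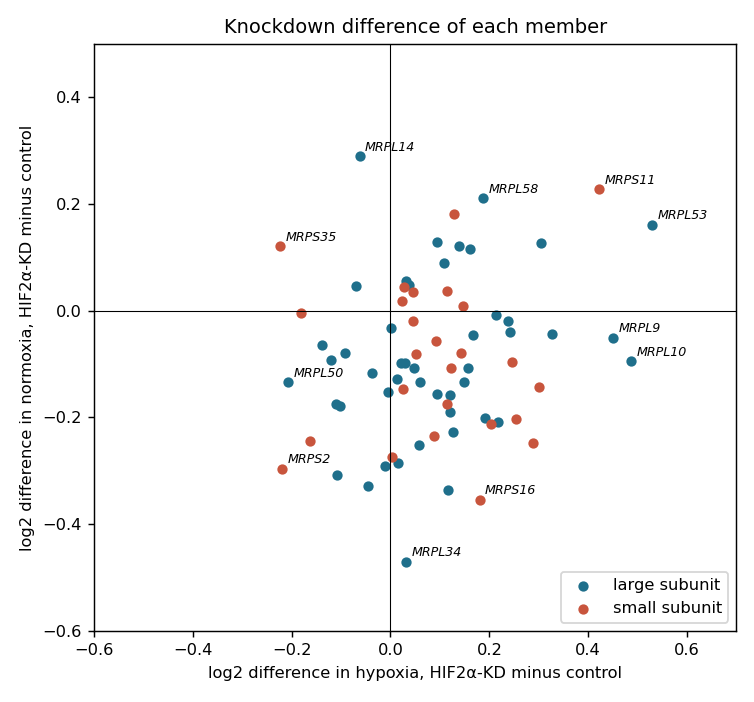
Log2 difference between HIF2α-KD and control cells of each member in hypoxia (x axis) and in normoxia (y axis); each point is 1 of 47 large subunit or 26 small subunit genes, with 1 array per condition and no error. The lower right part, higher in hypoxia and lower in normoxia, holds 40 of the 73 members, against 22.7% of all genes kept.

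The highest members under the knockdown in hypoxia were *MRPL53*, *MRPL10*, *MRPL9* and *MRPS11*. *MRPL53*, a large subunit gene with no bacterial counterpart, read 444 in cells labelled HIF2α-KD and 303 in control cells in hypoxia (log2 difference 0.53), and 486 in cells labelled HIF2α-KD and 433 in control cells in normoxia (0.16). *MRPL9* read 2182 in cells labelled HIF2α-KD and 1593 in control cells in hypoxia (0.45), and 2027 in cells labelled HIF2α-KD and 2100 in control cells in normoxia (-0.05). For *MRPL9*, *MRPL53* and *MRPL10* the control array in hypoxia was thus below the other 3. *MRPS11*, which encodes a platform protein of the small subunit, read 459 in cells labelled HIF2α-KD and 339 in control cells in hypoxia (0.42), and 445 in cells labelled HIF2α-KD and 378 in control cells in normoxia (0.23). It was higher under the knockdown label at both oxygen levels. The lowest members were *MRPS35* (-0.22), *MRPS2* (-0.22), *MRPL50* (-0.21) and *MRPS30* (-0.18). *MRPS2* read 682 in cells labelled HIF2α-KD and 796 in control cells in hypoxia, and 645 in cells labelled HIF2α-KD and 796 in control cells in normoxia. By this probe set it was lower under the knockdown label at both levels while neither line differed much with oxygen. Its second brightest set gave 0.03 in hypoxia and -0.21 in normoxia. In hypoxia the second sets gave 0.01 for *MRPS35*, -0.12 for *MRPL50* and -0.14 for *MRPS30*.

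In normoxia the lowest members under the knockdown label were *MRPL34* (-0.47), *MRPS16* (-0.35), *MRPL2* (-0.34) and *MRPL37* (-0.33), and for each the control array in normoxia was the highest of the 4. *MRPL2*, whose product is a conserved protein close to the catalytic centre, read 639.5 in cells labelled HIF2α-KD and 589 in control cells in hypoxia, and 658 in cells labelled HIF2α-KD and 834 in control cells in normoxia. The highest were *MRPL14* (0.29), *MRPS11* (0.23), *MRPL58* (0.21) and *MRPS33* (0.18). *MRPL58* encodes a peptidyl-tRNA hydrolase that has become part of the large subunit, and it read 1690 in cells labelled HIF2α-KD and 1482 in control cells in hypoxia, and 1810 in cells labelled HIF2α-KD and 1562 in control cells in normoxia. It was higher under the knockdown label at both levels, by 0.19 in hypoxia and 0.21 in normoxia.

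Members were also grouped by origin and by place in the ribosome. The choice of members did not use these groups, but the groups by place were set with earlier results of these data known. Of 43 members with a bacterial counterpart, 37 were lower in hypoxia in control cells (median -0.23), as were 19 of 30 with none (median -0.07). For the knockdown in hypoxia, 36 of 43 with a counterpart were above 0 (median 0.09), as were 20 of 30 with none (median 0.08). In normoxia 37 of 43 with a counterpart were lower under the knockdown label (median -0.13), as were 17 of 30 with none (median -0.03). In cells labelled HIF2α-KD the hypoxia medians were 0.02 with a counterpart and 0.04 with none. These are counts over genes on the same arrays, and the difference between the groups was not tested.

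Within the small subunit, 7 genes with a bacterial counterpart were grouped as body and platform (*MRPS5*, *MRPS11*, *MRPS12*, *MRPS15*, *MRPS16*, *MRPS18C* and *MRPS21*). By their brightest probe sets, all 7 were lower in hypoxia in control cells (median -0.28), against 46.8% of all genes kept. All 7 were higher in HIF2α-KD than in control cells in hypoxia (median 0.20), against 44.3% of all genes kept. In normoxia 6 were lower under the knockdown label (median -0.20). For the knockdown in hypoxia the second sets of *MRPS5* (-0.02), *MRPS16* (-0.09) and *MRPS18C* (-0.24) were below 0. Those of *MRPS12* and *MRPS21* were above it. For hypoxia in control cells the second sets of *MRPS18C* (0.05) and *MRPS21* (0.005) were above 0. Those of *MRPS5*, *MRPS12* and *MRPS16* were below it. The 9 small subunit genes placed in neither the body and platform group nor the head included other body proteins. Only 5 of these 9 were lower in hypoxia in control cells (median -0.00), with *MRPS22* at 0.24 and *MRPS26* at -0.44. Of these 9, 7 were higher under the knockdown in hypoxia (median 0.11) and 7 were lower in normoxia (median -0.08). Among them *MRPS2* and *MRPS28* also have a bacterial counterpart. Their differences were -0.00 and -0.09 for hypoxia in control cells, and -0.22 and 0.05 for the knockdown in hypoxia. *MRPS12*, which encodes a protein of the decoding centre, read 1032 in cells labelled HIF2α-KD and 835 in control cells in hypoxia, and 971 in cells labelled HIF2α-KD and 1074 in control cells in normoxia. Of the 7 head genes, 5 were lower in hypoxia in control cells (median -0.12) and 6 were higher under the knockdown in hypoxia (median 0.03), and 3 were lower in normoxia (median 0.02). The head genes include *MRPS31*, *MRPS33* and *MRPS35*, which have no bacterial counterpart, so these groups differ by origin as well as by place. In the large subunit, 5 of 6 central protuberance genes were lower in hypoxia in control cells (median -0.10), 5 of 6 were higher under the knockdown in hypoxia (median 0.16), and 4 of 6 were lower in normoxia (median -0.04). Of 7 genes at the exit tunnel, 4 were lower in hypoxia in control cells (median -0.09), 4 were higher under the knockdown in hypoxia (median 0.11) and 6 were lower under the knockdown label in normoxia (median -0.17).

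*MRPS18C* encodes the counterpart of bacterial S18. *MRPS18A* and *MRPS18B* encode related proteins at other places in the ribosome, which the naming of ribosomal proteins treats as mitochondria-specific and which are counted above among the 30 with no counterpart. *MRPS18A*, of the large subunit, read 814 in cells labelled HIF2α-KD and 746 in control cells in hypoxia, and 720 in cells labelled HIF2α-KD and 777 in control cells in normoxia. *MRPS18B* read 1300 in cells labelled HIF2α-KD and 1457 in control cells in hypoxia, and 1509 in cells labelled HIF2α-KD and 1790 in control cells in normoxia. *MRPS18C* read 1567 in cells labelled HIF2α-KD and 1313 in control cells in hypoxia, and 1386 in cells labelled HIF2α-KD and 1598 in control cells in normoxia. By these probe sets *MRPS18B* was lower under the knockdown label at both oxygen levels, whereas *MRPS18A* and *MRPS18C* were higher in hypoxia and lower in normoxia. The second set of *MRPS18C* was lower under the label at both levels (-0.24 in hypoxia and -0.11 in normoxia). *MRPS30*, whose product also sits in the large subunit, read 1301 in cells labelled HIF2α-KD and 1478 in control cells in hypoxia, and 1279 in cells labelled HIF2α-KD and 1283 in control cells in normoxia, with the control array in hypoxia above the other 3. *MRPS36*, whose product is not a ribosomal protein, read 780 in cells labelled HIF2α-KD and 754 in control cells in hypoxia, and 764 in cells labelled HIF2α-KD and 745 in control cells in normoxia, so that its 4 arrays differed little. Sorted by place, the large subunit has 49 members and the small subunit 23.

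Probe sets of the same gene measure its RNA a further time on the same arrays. Of 56 members with several kept probe sets, the 75 others had the sign of the brightest in 57 cases (76%) for hypoxia in cells labelled HIF2α-KD, in 62 (82.7%) for hypoxia in control cells, in 50 (66.7%) for the knockdown in hypoxia and in 56 (74.7%) for the knockdown in normoxia. The second brightest sets gave medians of 0.01 for hypoxia in cells labelled HIF2α-KD, -0.15 for hypoxia in control cells, 0.08 for the knockdown in hypoxia and -0.06 for the knockdown in normoxia. The second set of *MRPL1* gave 0.57 in cells labelled HIF2α-KD and 0.76 in control cells for hypoxia. The other sets of *MRPL21* gave -0.53 and -0.44 in cells labelled HIF2α-KD and -0.57 and -0.40 in control cells, and those of *MRPS16* gave -0.34 and -0.38 in cells labelled HIF2α-KD and -0.44 and -0.72 in control cells. For *MRPL53* the second set differed by 0.63 between HIF2α-KD and control cells in hypoxia. *MRPL10* is among the 15 members with 1 probe set and no such check. These also include *MRPL11*, *MRPL14*, *MRPL17*, *MRPL34*, *MRPL39*, *MRPS11*, *MRPS15* and *MRPS22*. Of the 73 chosen sets, 34 carry the suffix by which Affymetrix marks sets that can match more than 1 transcript.

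**Figure D4:**
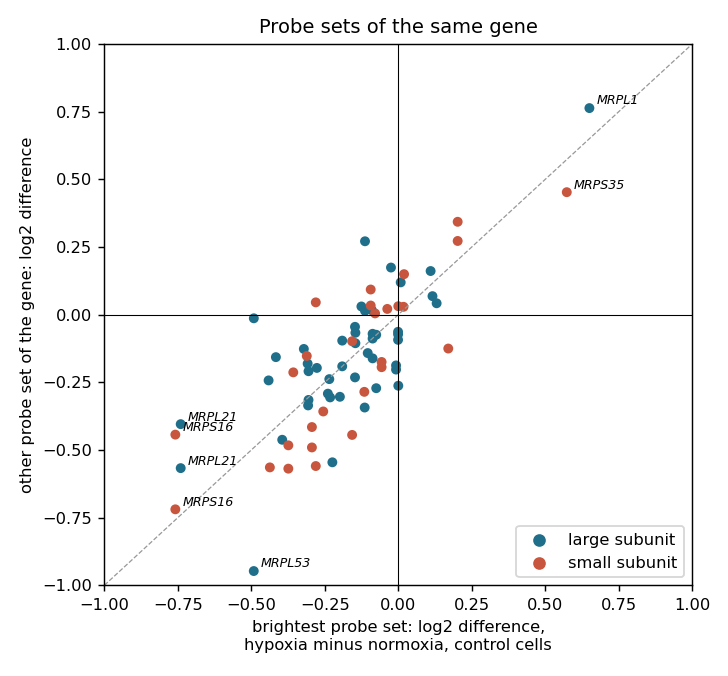
Log2 difference between hypoxia and normoxia in control cells from the brightest probe set of a member (x axis) and from each of its other kept probe sets (y axis); each point is 1 of 75 other sets, and the dashed line marks equal values. In 62 of 75 cases both sets had the same sign.

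The most similar gene families on the arrays are the proteins of the cytosolic ribosome and the nuclear subunits of the respiratory chain. For hypoxia in control cells, 20 of 54 cytosolic ribosomal protein genes were below 0 (median 0.02), and 42 of 58 respiratory chain genes were (median -0.13), beside 56 of 73 members (median -0.15). For the knockdown in hypoxia, 14 of 54 cytosolic ribosomal protein genes were above 0 (median -0.03) and 42 of 58 respiratory chain genes (median 0.05), beside 56 of 73 members (median 0.09). For the knockdown in normoxia the medians were 0.02 for cytosolic ribosomal proteins and -0.02 for the respiratory chain, beside -0.10 for the members. For hypoxia in cells labelled HIF2α-KD they were -0.02 and -0.07, beside 0.03 for the members. The members thus lay near the respiratory chain genes in the first of these comparisons and on the other side of 0 from the cytosolic ribosomal proteins in all 4, which describes medians with no test. For hypoxia in cells labelled HIF2α-KD the members' median changed sign with quantile normalization.

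**Figure D5:**
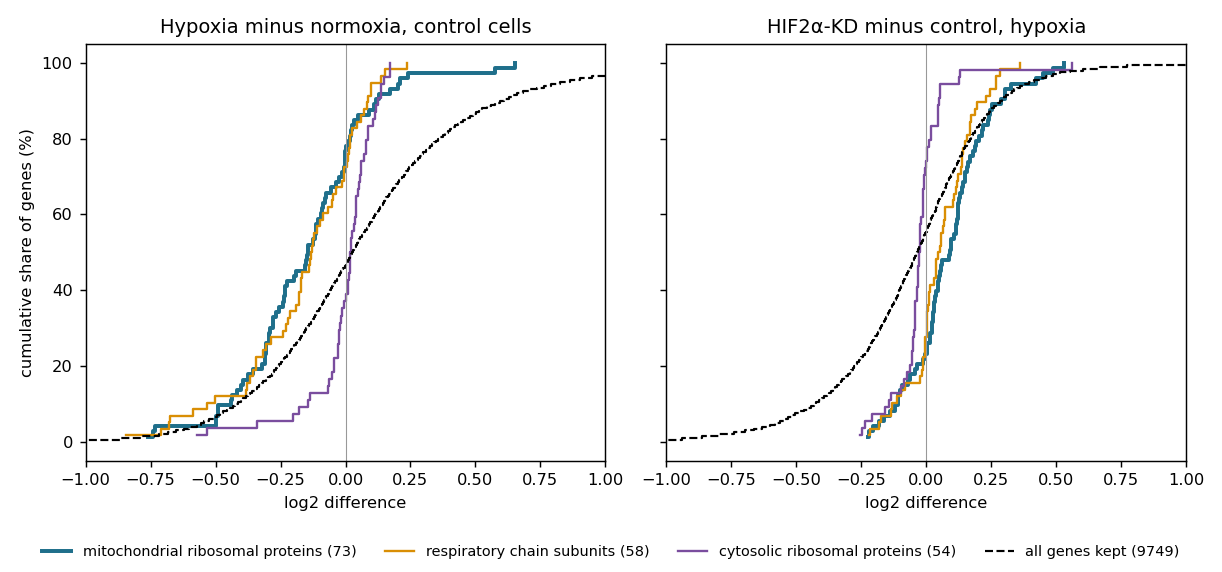
Cumulative share of genes (y axis, percent) against the log2 difference (x axis) for hypoxia minus normoxia in control cells (left) and HIF2α-KD minus control in hypoxia (right), for the 73 members, 58 respiratory chain genes, 54 cytosolic ribosomal protein genes and all 9749 genes kept, with values beyond 1 in size outside the axes. By their medians the members lie left of all genes in the left panel (-0.15 against 0.03) and right of them in the right panel (0.09 against -0.04).

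Other genes of mitochondrial translation were read from lists. Of 5 mitoribosomal genes without an MRP symbol, all were lower in hypoxia in control cells (median -0.30), and 2 were higher under the knockdown in hypoxia (median -0.01). One of them, *DAP3*, which encodes a GTP-binding small subunit protein, read 695 in hypoxia and 931 in normoxia in cells labelled HIF2α-KD, and 683 in hypoxia and 855 in normoxia in control cells. Of 18 genes for ribosome assembly and rRNA modification, 12 were lower in hypoxia in control cells (median -0.07) and 14 were higher under the knockdown in hypoxia (median 0.15), with *METTL17* at -0.63 and *FASTKD2* at -0.61 the lowest in hypoxia in control cells. Of 15 translation factors, 12 were lower in hypoxia in control cells (median -0.27) and 7 were higher under the knockdown in hypoxia (median -0.02). Of 16 genes for aminoacyl-tRNA synthesis, 13 were lower in hypoxia in control cells (median -0.26) and 9 were higher under the knockdown in hypoxia (median 0.04), with *RARS2*, the mitochondrial arginyl-tRNA synthetase gene, at -0.84 the lowest in hypoxia in control cells.

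*GFM1*, which encodes the elongation factor that moves the mitochondrial ribosome along its messenger RNA, was the only gene of these 4 lists that limma called. It read 1090 in hypoxia and 1733 in normoxia in cells labelled HIF2α-KD, and 608 in hypoxia and 1423 in normoxia in control cells. It fell in hypoxia by 0.93 on the log2 scale (limma, adjusted p = 0.0434), with differences of -0.66 in cells labelled HIF2α-KD and -1.21 in control cells. Like most members it was higher in HIF2α-KD than in control cells in hypoxia, by 0.83. Unlike most members it was also higher under the knockdown label in normoxia, by 0.28. *MTIF2*, which encodes an initiation factor, read 500.3 in hypoxia and 738 in normoxia in cells labelled HIF2α-KD, and 518 in hypoxia and 806 in normoxia in control cells, so that both hypoxic arrays lay below both normoxic ones. Of 8 kept regulators of nuclear genes for mitochondria, limma called *MYC* (0.86, adjusted p = 0.0343) and *MXI1*, which encodes a MYC antagonist (1.10, adjusted p = 0.0227), both higher in hypoxia. The call of *GFM1* did not hold with cyclic loess (adjusted p = 0.0650), with the mean of its probe sets (0.109), without a filter (0.108) or without trend (0.0864). The call of *MYC* did not hold with cyclic loess (0.0524), and neither *MYC* (0.0751 and 0.0686) nor *MXI1* (0.0724 and 0.0517) passed without a filter or without trend, all by limma.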

How the data were processed

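RNA of MDCK cells in 4 conditions was measured on Affymetrix canine arrays, 1 array per condition. The deposited table holds the authors' intensity values per probe set on a linear scale. How the authors summarised probes, corrected background and scaled arrays is not given in the sources used here, so the values were used as deposited. The table has no columns of the authors' own comparisons. Gene names came from the platform annotation, and 67 of 73 members matched RefSeq (dog) by gene number and symbol. Of 42924 probe sets, 29254 carry 1 gene symbol.

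Differences were taken on log2(intensity + 16) after a filter at 28.75, the median of all values. The additive fit used limma (lmFit and eBayes with a mean-dependent prior, Benjamini-Hochberg threshold 0.05) on 9749 genes and was tested on simulated data. It assumes that each term is the same at both levels of the other. Members, gene lists and groups by place were chosen with earlier results of these data known. Members are named where they had one of the 4 largest differences in a direction and comparison, were among the 5 brightest or 5 dimmest, or have a textbook role. In other lists up to 4 genes with the largest difference per comparison are named. *MRPL49*, *MRPL23*, *MRPS10*, *MRPS15*, *MRPS26*, *MRPS28*, *CA9*, *PFKFB4* and *BNIP3* were named after their values were seen. The lists of other cell types are markers of kidney epithelium, fibroblasts, endothelium and immune cells.

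The values were also computed after normalization by quantiles, cyclic loess or array medians, with no filter or a filter at the 75th percentile, pseudocounts of 1 and 64, averaged probe sets, every kept probe set, a 1.5-fold threshold, and limma without trend or with robust moderation. The second brightest probe set, and array ranks under each normalization, were added after seeing the data. With 4 arrays the precision is limited throughout. R 4.3.3, limma 3.58.1, Python 3.11.15, numpy 2.4.6, pandas 2.3.3 and matplotlib 3.10.9 were used. No genome or sequence table was used, so no coordinates or sequences are given.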

Additional observations from a re-analysis of the deposited data

Results flagged for a closer look

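Several differences had opposite signs under the same contrast in the 2 settings. None of these contrasts between settings was tested, since each condition has 1 array. The knockdown difference of the members had a median of 0.0929 in hypoxia and -0.0974 in normoxia. For the large subunit the medians were 0.06 in hypoxia and -0.0989 in normoxia, and for the small subunit 0.103 in hypoxia and -0.0891 in normoxia. The hypoxia difference of the members had a median of 0.0252 in cells labelled HIF2α-KD and -0.146 in control cells, and that of the small subunit 0.0609 in cells labelled HIF2α-KD and -0.105 in control cells. With quantile normalization the members' median in cells labelled HIF2α-KD was -0.00701, so the opposite sign did not hold there. These contrasts are built from the same 4 arrays and are not separate evidence of each other.

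Among single members, 4 had knockdown differences of at least 0.2 on the log2 scale in opposite directions, against 7.73% of all genes kept. *MRPL23* had 0.217 in hypoxia and -0.209 in normoxia, and *MRPS10* 0.288 in hypoxia and -0.248 in normoxia. *MRPS15* had 0.203 in hypoxia and -0.213 in normoxia, and *MRPS18C* 0.253 in hypoxia and -0.203 in normoxia. All 4 have a bacterial counterpart, as 43 of 73 members do, and these genes were picked out after their values were seen. The values are from the brightest probe sets. The other kept sets of *MRPS18C* gave -0.241 and -0.002 in hypoxia and -0.113 and -0.374 in normoxia, with no opposite signs. Those of *MRPS10* gave 0.411 and 0.390 in hypoxia and -0.196 and -0.250 in normoxia. *MRPL23* and *MRPS15* have 1 probe set each.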

How the results depend on the processing

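No paired analysis was possible because the labels give no replicate numbers and each condition has 1 array, and leaving out an array would leave the additive fit, which compares oxygen levels within a line, with no residual degrees of freedom. No normalization moved the median of all genes by more than 0.1. Relative to that median, over the planned normalizations, filters, pseudocounts and probe set rules, the members' median lay between -0.04 and 0.01 for hypoxia in cells labelled HIF2α-KD, between -0.18 and -0.15 for hypoxia in control cells, between 0.11 and 0.15 for the knockdown in hypoxia and between -0.08 and -0.04 for the knockdown in normoxia. The causes of the changes below were not tested.

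For hypoxia in cells labelled HIF2α-KD the members' median changed sign with quantile normalization (-0.00701). It was 0.0131 with median centring, 0.00801 with the mean of probe sets, 0.000684 over every kept probe set and 0.00911 with second probe sets, and for the large subunit -0.00907 with the mean of probe sets, so that this median has no settled sign. For hypoxia in control cells, quantile normalization gave -0.223 for the members and -0.238 for the large subunit, and 4 members passed a 1.5-fold threshold. For the knockdown in hypoxia, quantile normalization gave 0.152 for the members, 0.145 for the large and 0.17 for the small subunit. Cyclic loess gave 0.143 for the members and 0.114 for the large subunit, the mean of probe sets 0.0904 for the large subunit, and every kept probe set 0.0682 for the small subunit. For the knockdown in normoxia, quantile normalization gave -0.0643 for the members and -0.0571 for the small subunit, cyclic loess -0.0438 for the small subunit, and second probe sets -0.0615 for the members.

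Counts of all genes at 2-fold depended on the settings. With a pseudocount of 1, a pseudocount of 64, every kept probe set and a 1.5-fold threshold they were 334, 98, 342 and 795 for hypoxia in cells labelled HIF2α-KD (176 as reported), 595, 193, 725 and 1416 in control cells (350), 227, 37, 169 and 639 for the knockdown in hypoxia (96) and 235, 65, 199 and 585 for it in normoxia (113). A filter at the 75th percentile left 55 for the knockdown in hypoxia. The oxygen term by limma called 485 genes with quantile, 162 with cyclic loess and 421 with median normalization, 70 without a filter, 178 with the mean of probe sets, 102 without trend and 456 with robust moderation, against 275. It called 2 members with quantile normalization and 2 with robust moderation, and 1 with median centring and 1 with a pseudocount of 1. The knockdown term called 16 genes with quantile normalization, 15 with median centring, 10 with a pseudocount of 1, 4 with a pseudocount of 64 and 21 with robust moderation, and 0 members under each setting run.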
